A study of Homo sapiens with 22 samples.

Results

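The regions described here are the 13 stretches of enriched H3R2me2a whose nearest transcript, as the authors name it, belongs to ACTB, GAPDH or TPI1, out of 8819 regions in all. ACTB had 7 of them, TPI1 had 4 and GAPDH had 2. The genes were chosen by values in these same lists, their number of regions and their tags, which are therefore given as a description with no test. The 3 genes are housekeeping genes, widely used as loading or reference genes. ACTB encodes beta-actin, the main non-muscle actin of the cytoskeleton. TPI1 encodes triosephosphate isomerase, which interconverts the triose phosphates of glycolysis, and GAPDH encodes the enzyme that carries out the oxidation step after it. H3R2me2a is asymmetric dimethylation of arginine 2 on histone H3. It is placed by the methyltransferase PRMT6 and is known as a mark that hinders methylation of the neighbouring lysine 4 whose trimethylated form marks active promoters.

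The data came from chromatin immunoprecipitation and sequencing in NT2/D1, a pluripotent line of human embryonal carcinoma cells that responds to all-trans retinoic acid (ATRA). Both groups used here were CRISPR/Cas9 control cells, precipitated with a rat monoclonal antibody against H3R2me2a that was made in the laboratory. The treated cells had received 1 µM ATRA for 3 days and the untreated cells had received none. There was 1 library per condition, so no difference below has a replicate check, and intervals cover counting error only. The PRMT6-deleted cells and the other antibodies were not analysed here, so whether these regions depend on PRMT6 was not tested.

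Each region belongs to the promoter list (4236 regions) or the enhancer list (4583 regions), and to 1 of 3 clusters. The lists for clusters I and II were deposited under the untreated library, and those for cluster III, promoters and enhancers under the treated library. Cluster III carries a column of MACS tags, unscaled tag numbers named after the peak caller. Every region also has a column named tagcount, for which no library is given in the sources used here. At all 202 cluster I regions tagcount was 0 to 8 tags above the MACS tags of the untreated library, with a median of 3, and its minimum was 35 in clusters I and II. Tagcount is therefore read here as the count in untreated cells, and MACS tags in cluster III as the count in ATRA-treated cells. Sequencing depth is unknown, so a ratio of the columns is read only by its place among other cluster III regions. Coordinates of regions are on hg19.

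All 6 regions of GAPDH and TPI1 were promoter class and in cluster III. ACTB was divided, with 4 promoter-class regions in cluster II, 1 promoter-class region in cluster III and 2 enhancer-class regions in cluster III. None of the 13 regions was in cluster I. Cluster III held 9 of the 13 (69.2%, exact Clopper-Pearson 95% interval 38.6 to 90.9), near the 73.9% of all 8819 regions (73.0 to 74.8). By class, cluster III made up 63.9% of the promoter list and 83.2% of the enhancer list, and the 13 were 11 promoter-class and 2 enhancer-class regions. Cluster II held 1503 of all 4236 promoter-class regions, beside 4 of the 5 at ACTB.

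The promoters of the glycolytic genes are shown first, since the strongest regions of both genes lie at their starts. The 250 bases before a start are from RefSeq on GRCh38.p14, plus strand, and capitals mark matches on either strand to TATAA (the TATA box core), to the box CCAAT, to GGGCGG (the core of a GC box) or to ACGTG (a core shared by several factors). Matches of the GC box may overlap each other, and those of the last motif may be both strands of a single CACGTG site.
TPI1, chr12:6867281-6867530: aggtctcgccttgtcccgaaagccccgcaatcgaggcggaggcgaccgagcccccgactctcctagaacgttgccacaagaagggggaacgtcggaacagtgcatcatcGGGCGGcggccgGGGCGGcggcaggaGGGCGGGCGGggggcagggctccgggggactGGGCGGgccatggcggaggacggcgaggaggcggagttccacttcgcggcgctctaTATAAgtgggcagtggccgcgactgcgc
GAPDH, chr12:6535014-6535263: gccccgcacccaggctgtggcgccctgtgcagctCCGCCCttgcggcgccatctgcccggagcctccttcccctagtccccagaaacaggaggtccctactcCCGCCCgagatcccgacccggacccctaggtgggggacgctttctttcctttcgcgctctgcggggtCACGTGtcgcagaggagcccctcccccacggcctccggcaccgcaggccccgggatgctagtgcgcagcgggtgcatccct

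The TPI1 stretch ends at the start of the gene's reference transcript (MANE Select). The table also holds a TPI1 start 574 bp downstream, whose 250 bases had 1 match to GGGCGG, 1 to ACGTG and none to TATAA. The GAPDH stretch precedes an alternative start 747 bp downstream of that gene's reference start. Both stretches were 71.2% G and C, at percentile 82.3 among the 35116 promoters of the RefSeq table. The printed TPI1 stretch had 5 matches to GGGCGG and 1 to TATAA, which lay 28 to 24 bases before the start, about where a TATA box is usually found. GAPDH had 2 matches to GGGCGG and 1 CACGTG site, read as ACGTG on both strands, and none to TATAA. Neither printed stretch held CCAAT. Of all promoters of that length, 42.6% held GGGCGG, 18.9% TATAA, 18.5% ACGTG and 32.0% CCAAT. These matches describe the sequence and say nothing of binding.

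GAPDH carried the region with the most tags of the set, not scaled to width. Its main region (chromosome 12, 6642125 to 6645140) was 3016 bp wide, the 6th widest of the promoter list, whose median width was 534 bp. It had 565 MACS tags in ATRA-treated cells and a tagcount of 349 in untreated cells. The MACS tags were the 6th highest of the 6519 cluster III regions. The tagcount was at percentile 98.5 of the promoter list and at 99.9 of the promoter-class regions of cluster III. Scaled to its width, the region had 187 MACS tags per kb in treated cells (percentile 99.6 of cluster III promoter-class regions) and a tagcount of 116 per kb in untreated cells (percentile 74.3 of the promoter list). These percentiles refer to different sets and cannot be compared. The promoter list includes cluster II, whose promoter-class regions had a median tagcount of 138 per kb, against 70.3 in the whole list. The authors place it 42 bp from the start of the transcript GAPDH-208, which begins 24 bp from the reference start of the gene in GENCODE 44.

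The second GAPDH region (6645241 to 6646242) began after a gap of 100 bp, inside the gene, 1371 bp beyond the start of another transcript. It had 92 MACS tags in treated cells and a tagcount of 86 in untreated cells, nearly equal. Its neighbour in the direction of transcription, 317 bp further on (6646560 to 6648261), was given to the non-coding gene RP5-940J5.9. That enhancer-class region had 239 MACS tags in treated cells and a tagcount of 204 in untreated cells, the 29th highest tagcount of the enhancer list. With another RP5-940J5.9 region the 4 formed a run of 7853 bp, 83.4% of it covered by regions.

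TPI1 was covered from its start onward by 4 regions of cluster III. The first (6976122 to 6977271), 77 bp from the reference start, had 156 MACS tags in treated cells and a tagcount of 109 in untreated cells. The second (6977347 to 6978043) had 68 MACS tags in treated cells and a tagcount of 58 in untreated cells. For the third (6978052 to 6979145) the values were 104 MACS tags in treated cells and a tagcount of 83 in untreated cells. The fourth (6979674 to 6980610) had 100 MACS tags in treated cells and a tagcount of 72 in untreated cells. The first region thus had the most tags in both columns and the second, the narrowest at 697 bp, the fewest. Scaled to width, MACS tags in treated cells were 136, 97.6, 95.1 and 107 per kb, in order along the gene. Tagcount in untreated cells was 94.8, 83.2, 75.9 and 76.8 per kb. The first region stayed the highest, and the second was no longer the lowest.

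Only the first of these regions lay at the reference start of TPI1. The other 3 were nearest to shorter annotated transcripts that begin 938, 2017 and 2486 bp inside the gene, and 2 of those 3 transcripts are annotated as retaining an intron. Promoter class at TPI1 therefore includes regions within the gene body. The gaps between the 4 regions were 75, 8 and 528 bp.

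ACTB had its strongest region at its start. This cluster II region (chromosome 7, 5569753 to 5570710, minus strand), 43 bp from a start, had a tagcount of 172, at percentile 94.1 of the promoter list and 84.4 of cluster II promoter-class regions. Scaled to width its tagcount was 180 per kb (percentile 89.9 of the promoter list), above the 116 per kb of the main GAPDH region. A second cluster II region (5569047 to 5569709) lay 43 bp away with a tagcount of 86. Each cluster II region is listed with a second, overlapping interval whose library is not given. Both of these ACTB regions were paired with the same interval of 2495 bp (5568419 to 5570913), so what is listed as a pair of regions in one column is a single interval in the other. Such sharing was seen for 62 of 2098 cluster II regions (2.96%). A further cluster II region (5571274 to 5571689), 1271 bp upstream of a start, had a tagcount of 40.

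Cluster III regions of ACTB lay further into the gene and far upstream. Within the gene, 2.48 kb from the centre of the strongest region, the region from 5567443 to 5568061 had 50 MACS tags in treated cells and a tagcount of 31 in untreated cells. Towards the 3′ end of the run, the enhancer-class region from 5565982 to 5566918 had 88 MACS tags in treated cells and a tagcount of 56 in untreated cells. The authors' position class for it was the start window, by way of a short transcript inside the gene. Of the 9 cluster III regions of the 3 genes, the one with a tagcount of 31 was the only one below 35, the lowest tagcount in cluster II.

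The remaining ACTB regions were distal. The cluster II region from 5601603 to 5601964 (tagcount 50, 362 bp wide) was 642 bp from the start of ACTB-201, a transcript that begins 32189 bp upstream of the reference start in GENCODE 44. An intergenic enhancer-class region in cluster III (5614274 to 5614991), 44.4 kb upstream of the strongest region, had 81 MACS tags in treated cells and a tagcount of 50 in untreated cells. Its tagcount was at percentile 85.0 of the enhancer list.

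**Figure D1:**
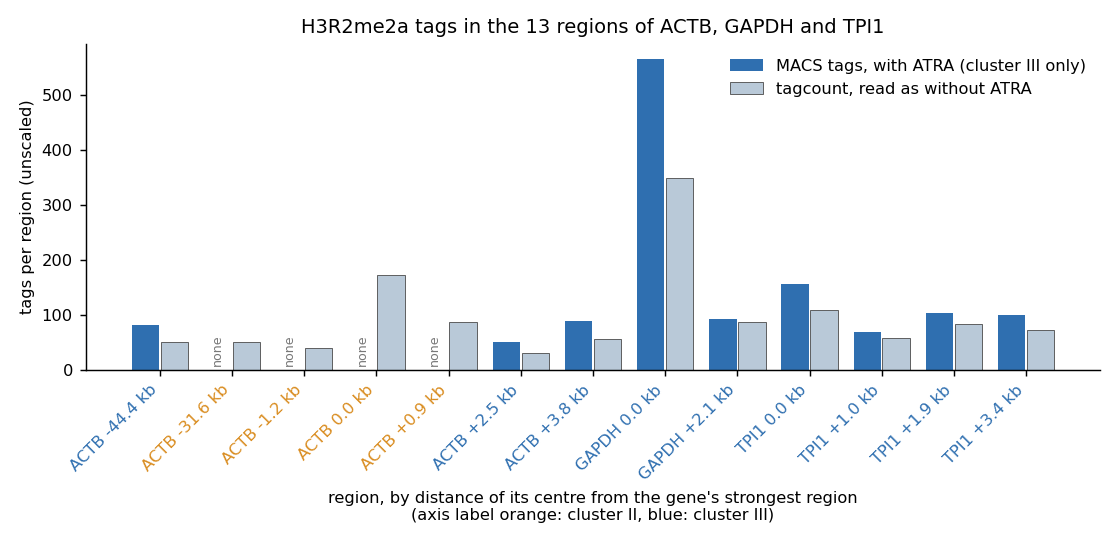
Unscaled tags in each of the 13 regions, with MACS tags of ATRA-treated cells (left bars, cluster III only) beside tagcount, read as untreated cells (right bars); each region is named by the distance of its centre from that gene's strongest region. The main GAPDH region stands far above the others, at 565 and 349 tags, and in each of the 9 cluster III regions the left bar is the higher. MACS tags exceeded tagcount in most other cluster III regions too, and the cluster III list belongs to the treated library.

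**Figure D2:**
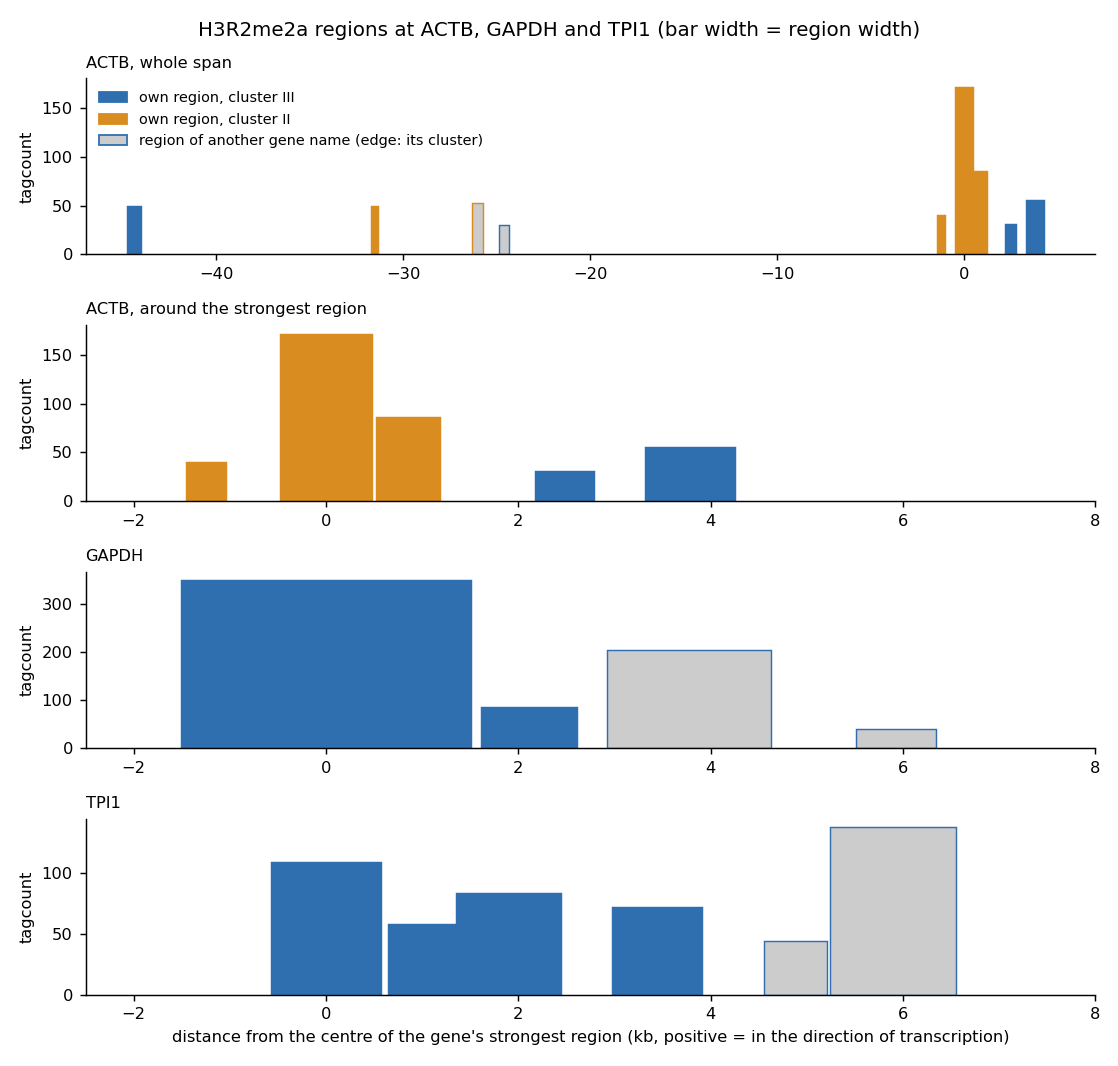
Positions of the regions along each gene, in kb from the centre of the gene's strongest region and oriented in the direction of transcription, with bar width equal to region width and height equal to tagcount. GAPDH and TPI1 regions (blue, cluster III) run on into regions of other gene names (grey). Of the 4 cluster II regions of ACTB (orange), 3 have centres within 1.25 kb of the strongest region's centre. The fourth lies 31.6 kb upstream.

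At each of the 9 cluster III regions MACS tags in treated cells exceeded tagcount in untreated cells, in unscaled tags. In this the 9 were like most of the 6519 cluster III regions, whose ratio had a 5th percentile of 1.17. The cluster III list belongs to the treated library, and its lowest value was 26 for MACS tags and 0 for tagcount. Such an excess is favoured by how the regions were listed, so it is only described. At the 9 regions the ratio ran from 1.07 to 1.62. Over the cluster III regions of ACTB, 219 tags in treated cells stood against 137 in untreated cells. The ratio was 1.60 (exact conditional 95% interval 1.29 to 1.99). At GAPDH it was 1.51 (657 against 435, 1.34 to 1.71), and at TPI1 it was 1.33 (428 against 322, 1.15 to 1.54). The 3 intervals overlapped, but the sums are not alike. That of ACTB covers 3 of its 7 regions, 2 of them enhancer class, and leaves out its 4 cluster II regions. Those of GAPDH and TPI1 cover all their regions, all promoter class.

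None of the 9 regions reached a ratio of 2, including 0 of 7 in the promoter class, where 35.2% of 2708 cluster III regions did, and 0 of 2 in the enhancer class, where 66.5% of 3811 did. The median ratio was 1.77 in all promoter-class regions of cluster III and 2.66 in the enhancer class. GAPDH's main region (ratio 1.62, 1.41 to 1.86) was at percentile 36.8 of the promoter class and its second region (1.07, 0.789 to 1.45) at 2.42. The TPI1 regions were at percentiles 19.8, 4.91, 8.47 and 16.7, in their order along the gene. ACTB's promoter-class region was at 36.4, and its enhancer-class regions were at 19.0 and 20.7 of their class.

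The ratio divides by tagcount, and every cluster III region had at least 26 MACS tags, so regions with a low tagcount have high ratios by construction. Of the 9 member regions 8 had a tagcount of at least 35. This compares with 39.0% of all promoter-class regions of cluster III and 18.3% of its enhancer-class regions. Among the 1055 promoter-class regions with a tagcount of at least 35, the share with a ratio of 2 or more was 17.1%, and it was 19.8% among the 886 of them outside the short arm of chromosome 12. Bands of tagcount were taken over all promoter-class cluster III regions. The share was 31.0% of 1178 regions at 20 to 34 and 21.6% of 643 at 35 to 49. It was 12.7% of 291 regions at 50 to 79, 2.06% of 97 at 80 to 149 and 8.33% of 24 at 150 to 418. The GAPDH and TPI1 regions had a tagcount of 58 or more, and the promoter-class cluster III region of ACTB had 31. Promoter-class regions with a tagcount from 80 to 149 came mostly from that arm (66.0% of 97). No share by tagcount was taken for the enhancer class.

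**Figure D3:**
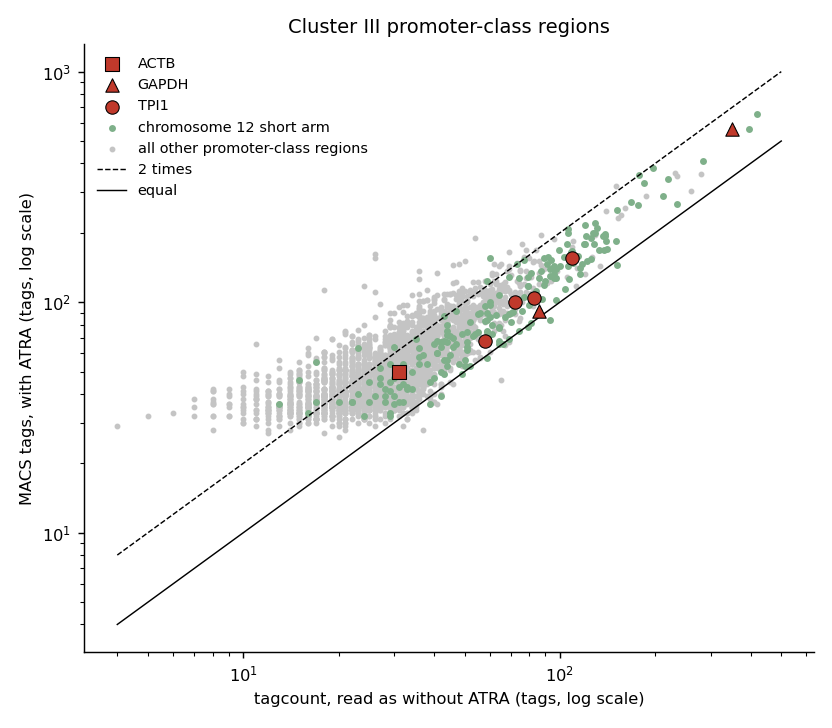
MACS tags of ATRA-treated cells (vertical) against tagcount, read as untreated cells (horizontal), for the 2708 promoter-class regions of cluster III, both on log scales, with lines at equal values and at a ratio of 2. The 7 member regions lie between the lines, among the regions of the short arm of chromosome 12 in the case of GAPDH and TPI1.

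Both glycolytic genes are carried by the chromosome 12 short arm, which was dense in regions, at 18.7 per Mb against 4.10 per Mb on the long arm. That arm held 640 regions (7.26% of all). Its 208 promoter-class cluster III regions had medians of 86 MACS tags in treated cells and 63.5 by tagcount in untreated cells, above the 51 and 29 elsewhere. Their median ratio was 1.43, against 1.82 elsewhere, and 5.77% reached a ratio of 2, against 37.6% elsewhere. Ranked within the arm, the main GAPDH region was still high, at percentile 99.0 by MACS tags in treated cells and 98.8 by tagcount in untreated cells, and its ratio was at percentile 75.2. The first TPI1 region was at 79.8 by both columns and its ratio at 51.2. The other 3 TPI1 regions had ratios at percentiles 14.2, 23.8 and 42.1 of the arm, and the second GAPDH region was at 7.93. Cluster III made up 84.9% of the arm's 245 promoter-class regions (79.8 to 89.1), so 6 of 6 for GAPDH and TPI1 was near the arm's own share. The number of copies of this arm in the cells was not measured here, and its part in these values was not tested. ACTB, on chromosome 7, had ratios of 1.57 to 1.62 at 3 cluster III regions. Of these, 2 were enhancer class, where the median ratio in cluster III was 2.66, so the medians above do not apply to them.

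**Figure D4:**
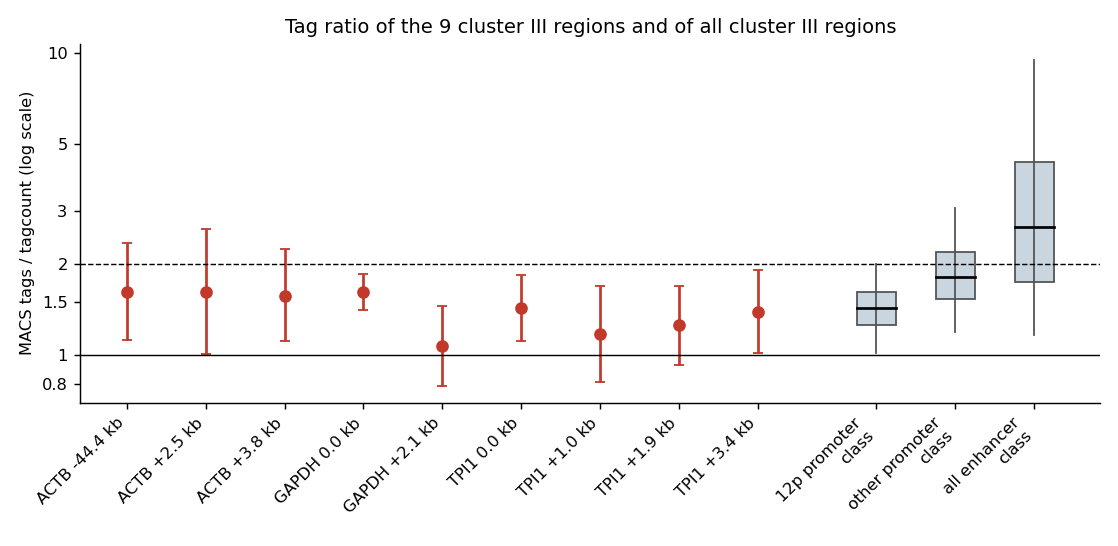
Ratio of MACS tags in treated cells to tagcount in untreated cells, on a log scale, for the 9 cluster III regions (points, with exact conditional 95% intervals) and for all cluster III regions by set (bars from the 25th to the 75th percentile, lines from the 5th to the 95th, thick line at the median). Every point lies below the dashed line at 2, and the ratios of the 4 TPI1 points are at percentiles 14.2 to 51.2 of the short arm of chromosome 12, whose median is 1.43.

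The regions of the 3 genes followed each other closely. The genes were chosen with their number of regions known, which favours such runs, so this is a description only. When regions less than 1000 bp apart were joined, 12.7% of all regions fell into runs of 2 or more, and 22 of 8215 runs held at least 4 regions. GAPDH, TPI1 and ACTB were in 3 of those 22, and 5 of the 22 were on the short arm of chromosome 12. Of the 4 regions in the GAPDH run only 2 were named GAPDH. The TPI1 run was the only one with 6 regions. It went on past TPI1 into a region of SPSB2, which encodes a SOCS box protein (75 MACS tags in treated cells and a tagcount of 44 in untreated cells), and one of LRRC23 (194 MACS tags in treated cells and a tagcount of 137 in untreated cells). It spanned 7124 bp, 82.1% of it covered, with gaps of 8 to 641 bp. The ACTB run held 5 regions over 5708 bp (62.9% covered), all of them named ACTB and from both clusters. The number of runs depends on the joining distance, which was set at 1000 bp.

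Neighbouring genes carried H3R2me2a regions as well. Within 50 kb of the TPI1 regions lay 13 regions of 7 other names, 12 of them in cluster III. The exception was the promoter of the deubiquitinase gene USP5, 13590 bp away, a cluster II region with a tagcount of 1190, the 3rd highest of the promoter list. ENO2, which encodes the neuronal enolase of glycolysis, had a region with 193 MACS tags in treated cells and a tagcount of 139 in untreated cells. GPR162, LEPREL2, SPSB2, LRRC23 and the pseudogene DSTNP2 had 2 or 3 regions each. The 12 neighbouring cluster III ratios ran from 1.06 to 2.15, with a median of 1.51.

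Around GAPDH there were 6 regions of 4 other names, all in cluster III. They belonged to NCAPD2 (a condensin subunit gene), NOP2 (a nucleolar RNA methyltransferase gene), IFFO1 and RP5-940J5.9, with ratios from 1.17 to 1.95 and a median of 1.47. Around ACTB there were 6 regions of FSCN1 (which encodes the actin-bundling protein fascin), FBXL18 and CTB-161C1.1. Their tagcount ran from 15 to 53, all below the 2 ACTB regions with the highest tagcount (172 and 86). The 5 in cluster III had a median ratio of 1.88.

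Other genes of the same pathways were described from 3 lists. For comparison, 23.2% of 20056 RefSeq protein-coding genes were named as nearest to a region, by symbol or synonym. Of all 6519 cluster III regions 53.5% reached a ratio of 2, at 35.2% in the promoter class and 66.5% in the enhancer class. The lists were mostly promoter class, with 11 of 15 regions for glycolysis, 19 of 24 for actin and 10 of 12 for reference genes. Of 19 genes of glycolysis and glucose uptake, 6 were nearest to a region (GAPDH and TPI1 included), all 6 with at least 1 promoter-class and 1 cluster III region. These were GAPDH, TPI1, ENO2, LDHB and PKM, and the glucose transporter gene SLC2A1. The first 4 lie on the short arm of chromosome 12. LDHB, which encodes a lactate dehydrogenase subunit, had 4 regions, of which the 3 in cluster III summed to 271 MACS tags in treated cells and a tagcount of 181 in untreated cells. SLC2A1 had 3 regions with 161 MACS tags in treated cells and a tagcount of 87 in untreated cells. PKM, the pyruvate kinase gene, had 1 region with 134 MACS tags in treated cells and a tagcount of 61 in untreated cells. Its ratio of 2.20 was above those of ENO2 (1.39), GAPDH and TPI1. Among the 14 cluster III regions of the glycolysis list, 10 were on that arm, and 2 of the 14 reached a ratio of 2. The PKM region, on chromosome 15, was 1 of these 2. Of all promoter-class cluster III regions, 5.77% reached that ratio on the arm and 37.6% elsewhere. The 14 include enhancer-class regions and the GAPDH and TPI1 regions, which were chosen beforehand, so neither share is a matched comparison.

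Of 20 genes of actin and the cytoskeleton, 10 were nearest to a region, beside 23.2% of all RefSeq protein-coding genes. ACTB, itself chosen by its regions, had the most. ACTG1, the other non-muscle actin gene, had a cluster II region with a tagcount of 42 and a cluster III region with 50 MACS tags in treated cells and a tagcount of 23 in untreated cells. CFL1, which encodes the actin-severing protein cofilin, had 2 cluster II regions whose tagcount summed to 202. FSCN1 had 3 regions, and ACTA1, TMSB4X, TUBA1B and TUBB had 2 each, while ACTR2 and TMSB10 had 1. In cluster III, 6 of the 17 regions of this list, none of them on the short arm of chromosome 12, reached a ratio of 2. Over all cluster III regions the share was 35.2% in the promoter class and 66.5% in the enhancer class.

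Of 17 further genes used as references in expression assays, 8 were nearest to a region, beside 23.2% of all RefSeq protein-coding genes. EIF4A2, a translation initiation helicase gene, had 3 regions with a summed tagcount of 179. EEF1A1, the elongation factor gene, had 138 MACS tags in treated cells and a tagcount of 97 in untreated cells, and PPIA (cyclophilin A) had 109 MACS tags in treated cells and a tagcount of 70 in untreated cells. TBP, GUSB, RPL13A and UBB had 1 region each. In cluster III, 1 of the 9 regions of this list reached a ratio of 2, against 35.2% of all promoter-class and 66.5% of all enhancer-class regions. B2M, HPRT1 and the other 7 genes of this list were not named as nearest to any region. The highest single tagcount in the 3 lists was that of GAPDH.

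Most genes had fewer regions than these. Of 6697 gene names, 5486 (81.9%) had 1 region, 189 (2.82%) had 4 or more, as TPI1 did, and 30 (0.448%) had 7 or more, as ACTB did. By promoter-class regions alone, ACTB with 5 was among the 4 names with at least 5, and TPI1 with 4 among the 11 with at least 4. Likeness of pattern was measured as the sum of absolute differences in the number of regions over the 6 combinations of class and cluster. GAPDH's pattern, 2 promoter-class regions in cluster III, was matched exactly by 116 names. Of these, PDE4DIP, C12orf4, LRRC23, LEPREL2 and GPR19 were the nearest by summed tagcount, at 510, 212, 210, 173 and 172 against 435 for GAPDH. For TPI1 15 names differed by 1 region, and the nearest of these by summed tagcount were GPR162, BCL9, CRABP2, HNRNPA2B1 and HOXA3. ACTB had no near match: NEAT1, MEF2D and HNRNPA1 differed by 3 regions, and CENPT and NOTCH2NL by 4.

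Processed pseudogenes of GAPDH and ACTB occur throughout the genome, and the sources used here do not give how reads with several possible positions were treated. Regions nearest to such copies, a set picked out after its values were seen, numbered 4 by name. GAPDHP24 had 67 MACS tags in treated cells and a tagcount of 9 in untreated cells, at 24715 bp from its start. For ACTBP11 the values were 71 MACS tags in treated cells and a tagcount of 16 in untreated cells. GAPDHP49 had 42 MACS tags in treated cells and a tagcount of 25 in untreated cells, and GAPDHP38, in cluster II, had a tagcount of 60. All 4 were enhancer class and at least 11917 bp from the copy's start.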

How the data were processed

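Chromatin immunoprecipitation for H3R2me2a in control NT2/D1 cells gave 5 region lists, from 2 of the 22 samples, 1 library per condition. The remaining 20 samples were not analysed here. The tools bcl2fastq, Bowtie2, MACS 1.4 and deepTools and the build hg19 are named in the submitters' processing notes, with no role or order. Tag counts (MACS tags, tagcount) were deposited by the authors as unscaled whole numbers for each region, beside position classes that use windows of 1250 bp around starts and 5000 bp upstream, per the file headers. The sources used here do not give the control in peak calling, the criteria of the clusters and classes, or the depth.

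The lists were joined on chromosome, start and stop, and no region was filtered. The members, the gene lists and the arm of chromosome 12 (below 36 Mb) were chosen with earlier results of these data known. The text names every member region, every gene named within 50 kb of one, list genes with a region (values for up to 4 per list), apart from 1 that is not reported here, and the 5 names most like each member. No tests were run, since each condition had 1 library. Ratios carry exact conditional binomial 95% intervals and shares exact Clopper-Pearson 95% intervals, which were tested on simulated data for the ratio. Percentiles count ties by their middle. GENCODE 44 supplied 10 of 11 nearest transcripts and distances between starts within a gene. RefSeq promoters were matched for GAPDH and TPI1 and not for ACTB. No coordinate was moved between builds. Python 3.11.15, pandas 2.3.3, NumPy 2.4.6 and SciPy 1.17.1 were used. Alternatives were other distance limits, tag limits, groupings and pseudocounts.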

Additional observations from a re-analysis of the deposited data

How the results depend on the processing

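Over 42 comparisons, 25 values moved by less than their counting interval or, for counts, by less than 1.5 times. These took in every alternative run for the cluster III shares, the tag ratios and the numbers of list genes with a region. At GAPDH and TPI1 the share had to stay at 100%, as all their regions were in cluster III. The ACTB share went from 42.9% to 33.3% at or above the median tagcount and to 25% within 1000 bp of a start. Its interval on 7 regions was wide (9.90 to 81.6), so this is a weak check. Region numbers per gene depended on what counts as a gene's region. With regions of any name within 50 kb there were 13 for ACTB, 8 for GAPDH and 17 for TPI1. Within 1000 bp of a start ACTB had 4 and GAPDH had 1, because its second region is 1371 bp away. Joined at 1000 bp, ACTB had 3, GAPDH 1 and TPI1 1. The percentile of the strongest tagcount also depended on the set. For ACTB it was 96.6 among both classes, 84.4 within its class and cluster and 89.9 per kb among all regions of its class. For GAPDH it was 99.2, 99.9 and 74.3, and for TPI1 it was 92.8, 97.8 and 64.5, in the same order. Added after the data were seen, the share of promoter-class cluster III regions with a ratio of at least 2 was 5.77% on the short arm of chromosome 12, 37.6% elsewhere and 17.1% at a tagcount of at least 35. No paired analysis was possible because each condition had 1 library with a file. The unknown depth limits every ratio, and small tag numbers limit the weaker regions.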
